A study of Mus musculus with 23 samples.

Results

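A set of 4 genes of the corticosteroid stress axis was examined for DNA methylation in the prefrontal cortex of mice, namely Nr3c1, Nr3c2, Crhr1, and Hsd11b1. The 4 genes were taken as intervals of the GRCm38 genome, which hold Nr3c2, Crhr1, and Hsd11b1 with about 5 kb on either side and end before the annotated 5′ end of Nr3c1. Of the 210191 windows of 150 bp in the data, 35 lay inside these intervals, with 27 in Nr3c2, 6 in Crhr1, 2 in Hsd11b1, and 0 in Nr3c1. All 23 mice had a value in each of the 35 windows.

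In MBD-seq, DNA fragments are captured with the MBD2 protein, which binds methylated CpGs, and are then sequenced. The value of a window is the log2 of its reads scaled by window length and library size (log2 RPKM), so a difference of 1 is a doubling of captured DNA, and the share of molecules that are methylated is not measured. Mice of the C57BL/6J (B6) and DBA/2J (D2) inbred strains were controls or had received CORT+DFP. This treatment was corticosterone in the drinking water at 20 mg% for 7 days, then an injection of the organophosphate DFP at 4.0 mg per kg, a surrogate for the nerve agent sarin, and then corticosterone in every other week. Control mice had saline in place of DFP and no corticosterone. There were 5 B6 control, 6 B6 CORT+DFP, 6 D2 control, and 6 D2 CORT+DFP mice, with 11 females and 12 males, aged 145 to 226 days. Each library held from 9776537 to 18428398 reads in all windows together, and means at the 35 windows were 31.0 to 79.0 reads. Each sample is bulk tissue from the prefrontal cortex of a mouse, with its cell types mixed. A shift in the share of a cell type and a change of methylation within cells therefore cannot be told apart. Only DNA was measured in these samples, so the tissue was not checked against marker gene expression.

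Corticosterone is the main glucocorticoid of mice. Its release begins with corticotropin-releasing hormone, which acts on the receptor CRHR1, and ends with steroid secretion from the adrenal cortex. In the brain the steroid binds a pair of nuclear receptors. NR3C2, the mineralocorticoid receptor, has the higher affinity and is largely occupied at resting hormone levels, and NR3C1, the glucocorticoid receptor, is occupied when levels rise with stress or with the daily peak. HSD11B1 is an enzyme that regenerates active corticosterone from its inert keto form within cells, and so sets the amount of steroid that the receptors meet. These receptors and the enzyme also mediate the feedback by which the hormone limits its own release.

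The exonic windows of Nr3c2, Crhr1, and Hsd11b1 could be read as sequence from the GENCODE M21 transcripts, on the strand of each gene and 5′ to 3′, with each CpG in capitals. The first pair is shown because these Nr3c2 windows, although rich in CpGs, had nearly equal values in both strains, while 17 of the 24 windows in its intron were called for strain. The Crhr1 stretch is the part of exon 7 inside the window with the smallest p for treatment in that gene, and the Hsd11b1 stretch is the part of exon 3 inside the only window of the 35 that was called lower in D2.
Nr3c2 exon 5, plus strand, chr8:77185801-77185950: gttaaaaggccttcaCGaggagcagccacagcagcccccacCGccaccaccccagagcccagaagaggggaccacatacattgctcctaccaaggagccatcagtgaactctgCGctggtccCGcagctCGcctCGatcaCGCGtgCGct
Nr3c2 exon 5, plus strand, chr8:77185951-77186100: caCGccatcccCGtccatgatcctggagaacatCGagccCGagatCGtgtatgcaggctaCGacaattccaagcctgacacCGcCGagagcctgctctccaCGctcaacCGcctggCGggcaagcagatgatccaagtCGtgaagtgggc
Crhr1 exon 7, plus strand, chr11:104170201-104170275: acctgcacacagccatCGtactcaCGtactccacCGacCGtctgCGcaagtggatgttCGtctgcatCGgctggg
Hsd11b1 exon 3, minus strand, chr1:193240527-193240638: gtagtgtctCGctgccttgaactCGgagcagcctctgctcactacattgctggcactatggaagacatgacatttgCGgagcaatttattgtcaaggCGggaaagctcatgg

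The Nr3c2 stretches hold 9 and 12 CpGs, as many as the deposited CpG counts of these windows. The Crhr1 stretch holds 7 of the 10 CpGs of its window, and the Hsd11b1 stretch holds all 4. The promoters of these genes had no window. RefSeq's promoters on GRCm38.p6 run from 250 bases before to 50 after the start of a gene. They held 17 CpGs in Nr3c2, 31 in Crhr1, and 6 in Hsd11b1. The windows nearest to these promoters were 37880, 36921, and 1661 bp away. That of Nr3c2 lay outside its interval, and the first window inside was 237459 bp from the GENCODE start of the gene. The GENCODE start of Hsd11b1 was farther than its RefSeq promoter, at 23425 bp from the nearest window. Of all 32851 promoters of the same length, 2.88% held a window, and of those with at least as many CpGs as Crhr1, 0.865% did. The 250 bases before the start of Crhr1 are shown because this is the densest in CpGs of the promoters and exon stretches examined here.
Crhr1 promoter, plus strand, chr11:104132531-104132780: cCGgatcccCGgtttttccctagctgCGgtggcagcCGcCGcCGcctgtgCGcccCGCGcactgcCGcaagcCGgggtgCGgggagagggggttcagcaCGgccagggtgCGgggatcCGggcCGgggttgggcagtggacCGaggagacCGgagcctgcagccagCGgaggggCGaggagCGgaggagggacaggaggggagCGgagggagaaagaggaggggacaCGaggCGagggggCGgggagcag

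The data therefore cover gene bodies, and not promoters, of these genes. Nr3c1 (chr18:39410545-39519421) had no window over its whole length of 108877 bp, also beyond the end of the interval used. The nearest windows were 12.6 kb beyond its 3′ end and 79.4 kb before its 5′ end. No level can be given for the glucocorticoid receptor gene, in either strain or after CORT+DFP. A window is listed only where at least 2 libraries had more than 1 CPM (counts scaled to library size), and only where it holds a CpG, so the lack of a window says only that no stretch there met both conditions. Of 20807 protein-coding genes on autosomes, 38.7% had no window within 5 kb, and of the 1367 such genes within 25% of the length of Nr3c1, 258 (18.9%) had none.

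Nr3c2 (chr8:76899442-77245012, plus strand) had more captured DNA in D2 than in B6 mice in a stretch of intron 3. Strain was tested as D2 minus B6, averaged over control and CORT+DFP mice, with limma on all windows, and a window was called at a Benjamini-Hochberg adjusted p under 0.05. Of the 27 Nr3c2 windows, 17 were called, all higher in D2. Over all windows, 34.6% were called for strain and 16.4% were called higher in D2. The median strain difference of the Nr3c2 windows was 0.29, and that of all windows was 0.014. Of the 35 windows, 18 were called.

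Of the Nr3c2 windows, 24 lie in intron 3 of 8, in 5 runs of adjacent windows between 77136901 and 77143350, and 3 lie in or at the edge of exon 5. The run at chr8:77138251-77139150 differed most. Its mean over 6 windows was 4.98 ± 0.27 (SD, n = 12) in D2 against 4.44 ± 0.095 (SD, n = 11) in B6, and 5 of its 6 windows were called. The run at chr8:77141401-77142300 had the highest levels and smaller differences, of 0.22 to 0.36, with all 6 windows called. In the run at chr8:77140651-77141250, 3 of 4 windows were called, and in that at chr8:77142601-77143350, 3 of 5 were called. In the run nearest to the start of the gene, chr8:77136901-77137350, 0 of 3 windows were called, with differences of 0.015 to 0.14. The exonic run at chr8:77185801-77186250 had 0 of 3 called as well, with differences of -0.030 to 0.012. Its mean was 4.61 ± 0.18 (SD, n = 12) in D2 against 4.61 ± 0.11 (SD, n = 11) in B6. The strain difference was not tested between runs. With the set of the mice, the first part of the sample name, in place of age in the fit, 3 of 6 windows were called in the run at 77138251, 0 of 4 in that at 77140651, 3 of 6 in that at 77141401, and 2 of 5 in that at 77142601. The 4 windows of the run at 77140651 then differed by -0.11 to 0.31, with adjusted p of 0.3 to 0.798. Over all windows, 21.5% were called in this fit.

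**Figure D1:**
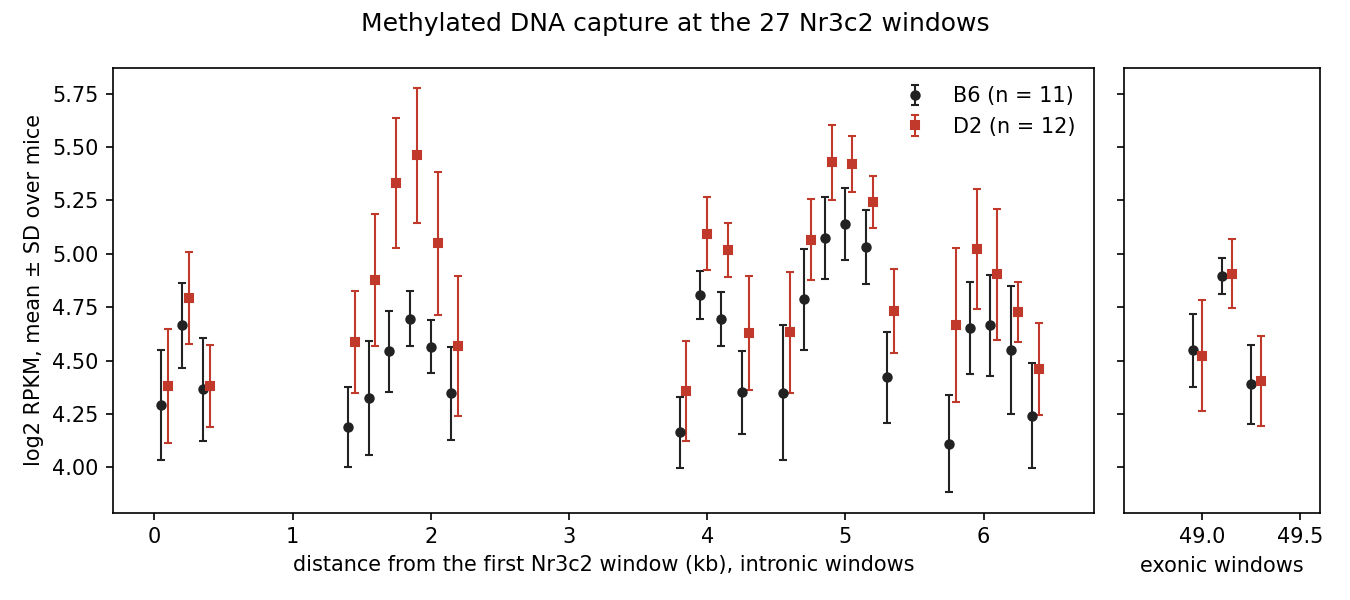
Level of captured DNA (log2 RPKM, y axis) at the 27 Nr3c2 windows by distance from the first of them in kb (x axis), with circles for the mean of 11 B6 mice, squares for that of 12 D2 mice, and bars for the SD. D2 lies above B6 in the intronic windows of the left panel, most in the second run, and the strains lie together in the exonic windows of the right panel.

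The largest difference was at chr8:77138551-77138700, a window with 3 CpGs and a mean of 65.0 reads per mouse. The B6 control mice had log2 RPKM of 4.51, 4.11, 4.52, 4.64, and 4.41. The B6 CORT+DFP mice ranged from 4.44 to 4.81 with a median of 4.64. The D2 control mice ranged from 4.79 to 5.77 with a median of 5.46, and the D2 CORT+DFP mice from 5.14 to 5.56 with a median of 5.33. The strains overlapped only in that the lowest D2 control mouse, at 4.79, was just below the highest B6 mouse. The difference was 0.80 (SE 0.088, adjusted p = 6.29e-11), or 1.74-fold.

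At the next window, chr8:77138701-77138850, the B6 control mice had 4.72, 4.52, 4.86, 4.69, and 4.59. The B6 CORT+DFP mice ranged from 4.48 to 4.81 with a median of 4.78, the D2 control mice from 4.88 to 5.91 with a median of 5.55, and the D2 CORT+DFP mice from 5.32 to 5.69 with a median of 5.51. The highest B6 mouse, at 4.86, was below the lowest D2 mouse, at 4.88, so the strains did not overlap. Of the 35 windows, 1 had no overlap, where 12.9% of all windows had none and 2.87% had none with D2 higher. The difference was 0.77 (SE 0.087), or 1.70-fold. In both windows the lowest D2 values came from 2 control females of set G1208, at 4.79 and 4.81 in the first and at 4.89 and 4.88 in the second.

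Toward the ends of this run the differences were smaller. The window at 77138401 differed by 0.56 (SE 0.099), that at 77138851 by 0.48 (SE 0.095), and that at 77138251 by 0.40 (SE 0.097). Further along, the window at 77142601 differed by 0.55 (SE 0.11). Its B6 control mice had 4.16, 4.25, 3.98, 4.16, and 3.77, and its D2 control mice ranged from 4.44 to 5.22. A D2 CORT+DFP female at 3.82 lay among the B6 mice, and 9 of the 12 D2 mice lay above the highest B6 mouse, at 4.47. The window with the highest level of the 35, at 77141851 with a mean of 5.29, differed by 0.29 (SE 0.073). Among the 24 intronic windows the number of CpGs ran from 1 to 16. Its correlation with the strain difference was -0.25 and with the level 0.39, across neighbouring windows that share fragments and mice, which is given as a description.

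The windows at 77138551 and 77138701 were called in every alternative fit, and among CORT+DFP mice of set G1014 alone they were the only ones called. With the set in place of age, the calls were lost at 77138251 (0.35, adjusted p = 0.216), at 77138401 (0.45, adjusted p = 0.105), and at 77141851 (0.31, adjusted p = 0.133). For the strain difference of control mice, taken from the fit to all mice, they were lost at 77138251 (0.23, adjusted p = 0.297) and at 77138851 (0.36, adjusted p = 0.0654). Under quantile normalization the difference at 77141851 was 0.16 (adjusted p = 0.0885). The window at 77141401 was not called in the unmoderated fit (0.30, adjusted p = 0.0795) or in 7 of the 23 fits that left out a mouse.

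**Figure D2:**
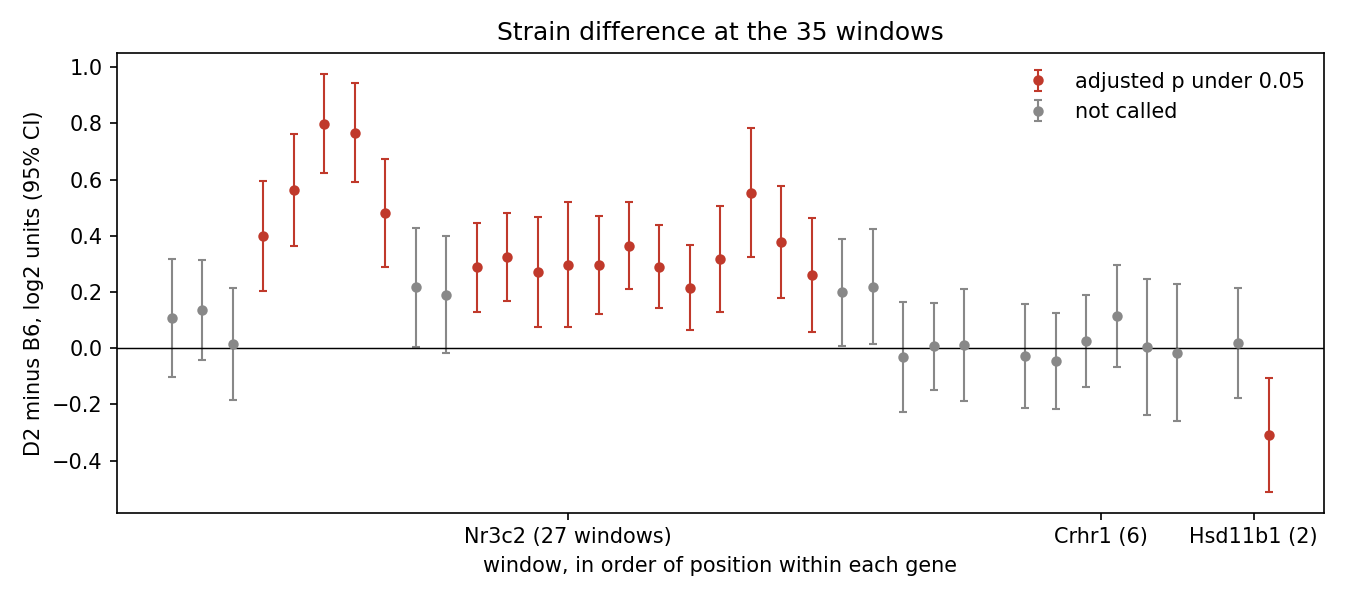
Strain difference (D2 minus B6, log2 units, y axis) with its 95% confidence interval at each of the 35 windows, in order of position within Nr3c2, Crhr1, and Hsd11b1 (x axis), with windows called in the test over all windows in red and the others in grey. The 17 red Nr3c2 windows are above 0, all 6 Crhr1 windows are grey, and 1 of the 2 Hsd11b1 windows is red and below 0.

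As the mean over its 27 windows, Nr3c2 had 4.84 ± 0.11 (SD, n = 12) in D2 against 4.55 ± 0.055 (SD, n = 11) in B6 mice. The B6 mice ranged from 4.42 to 4.64 and the D2 mice from 4.68 to 5.05. The share of all genes that separate the strains in this way was not computed, so this is not read as particular to Nr3c2. The difference was 0.29 (SE 0.036, adjusted p = 2.82e-07 over 24118 genes). At gene level 26.7% of genes were called for strain and 9.43% were called higher in D2. Of the 1575 genes with at least 20 windows, 9.78% had a strain difference as large as that of Nr3c2, and 7.68% had as large a share of windows called higher in D2.

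The mice came in 3 sets, which were aged differently, and the strains met only among CORT+DFP mice of set G1014. In these 3 B6 mice of 218 to 226 days and 2 D2 mice of 196 days, all 27 Nr3c2 windows were higher in D2 and 2 were called. Of all 210191 windows, 40126 were called in these mice. The mean over the gene differed by 0.32 (SE 0.12, adjusted p = 0.118). With the set in place of age in the fit, 8 of the 35 windows were called, where 21.5% of all windows were. The Nr3c2 mean then differed by 0.37 (SE 0.066, adjusted p = 0.00015). Of the 18 windows called in all mice, 18 had the same direction in each of these fits. They were chosen by their difference in these same mice, so this agreement is not separate support.

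In Crhr1 (chr11:104132855-104175523, plus strand), the receptor for corticotropin-releasing hormone, no window was called for strain. All 6 windows are exonic, with 4 in or beside exons 6 and 7 and 2 in exon 13, near the 3′ end of the gene. Their strain differences ran from -0.045 to 0.11. The mean over the 6 windows was 4.52 ± 0.16 (SD, n = 12) in D2 against 4.51 ± 0.17 (SD, n = 11) in B6. The difference of 0.0097 had a 95% confidence interval of -0.13 to 0.15 (adjusted p = 0.955), so the 0.29 of the Nr3c2 mean lay outside it. These means cover unlike windows, because the called Nr3c2 windows were all intronic. The exonic run of Nr3c2 differed by -0.030 to 0.012. The highest level was at chr11:104169901-104170050, with 4.87, and the window nearest to the start of the gene, at 104169751, had 4.65.

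Hsd11b1 (chr1:193221634-193264075, minus strand) had 2 adjacent windows, at chr1:193240351-193240650, and these differed from each other. They cover parts of exons 3 and 4 and also lie inside the annotated bounds of Lamb3, a laminin gene. At chr1:193240501-193240650, where all 4 CpGs are in exon 3, D2 was lower. The B6 control mice had 3.69, 4.22, 4.67, 4.57, and 4.30. The B6 CORT+DFP mice ranged from 4.24 to 4.70 with a median of 4.39, the D2 control mice from 3.74 to 4.46 with a median of 4.09, and the D2 CORT+DFP mice from 3.82 to 4.31 with a median of 3.98. The strains overlapped, and the lowest of all was a B6 control female at 3.69 with 17 reads. The difference was -0.31 (SE 0.10, adjusted p = 0.012). Over all windows, 18.3% were called lower in D2. The direction held in all alternative fits, but the call was lost with the set in place of age (-0.40, adjusted p = 0.161). For control mice in the fit to all mice it was lost too (-0.21, adjusted p = 0.375). It was also lost in CORT+DFP mice of set G1014 alone (-0.55, adjusted p = 0.111) and under quantile normalization (-0.18, adjusted p = 0.208).

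The neighbouring Hsd11b1 window, at 193240351, had 4.49 ± 0.17 (SD, n = 12) in D2 against 4.48 ± 0.31 (SD, n = 11) in B6 and was not called (0.018, SE 0.097). The mean over both was 4.27 ± 0.17 (SD, n = 12) in D2 against 4.43 ± 0.28 (SD, n = 11) in B6. This difference was not called (-0.15, SE 0.071, adjusted p = 0.157). Without B6 control replicate 1, the female with 3.69 above and with the fewest reads of the 23 mice, it was -0.20 and passed the threshold (adjusted p = 0.017). Among CORT+DFP mice of set G1014 alone it was -0.48 (adjusted p = 0.07), and with the set in place of age -0.31 (adjusted p = 0.15). For control mice in the fit to all mice it was -0.064 (adjusted p = 0.783), and under quantile normalization -0.058. Apart from the fit without B6 control replicate 1, it was called in none of these.

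The question whether CORT+DFP altered methylation was asked within each strain, as CORT+DFP minus control in B6, the same in D2, and the difference between these, the treatment-by-strain interaction. In the 35 windows, 0 were called in any of the 3 by limma, and 0 of 210191 windows were called in the whole data, a share of 0%. In simulated data, 2% of windows with a change of 0.5 in B6 and 56% with a change of 1 were called. There, 209991 of 210191 windows were unchanged and the spread was not that of these data, so these shares need not hold here. A lack of calls is not a lack of change. Without the variance trend 5 windows of the whole data were called in D2, and 0 of the 35. At an unadjusted p under 0.05, 1 of the 35 windows passed in B6, 0 in D2, and 1 for the interaction, where 5.92%, 5.33%, and 7.15% of all windows passed. At gene level 0% of 24118 genes were called in any of the 3, with 7.27%, 5.66%, and 10% at an unadjusted p under 0.05. In B6, treatment was partly tied to set and age. All 5 B6 control mice were of set G1118 and aged 145 days. Of the 6 B6 CORT+DFP mice, 3 were of set G1118 at that age, and 3 were of set G1014 and aged 218 to 226 days.

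Among B6 mice, the Nr3c2 mean was 4.57 ± 0.044 (SD, n = 6) after CORT+DFP against 4.53 ± 0.063 (SD, n = 5) in controls. Among D2 mice, it was 4.84 ± 0.069 (SD, n = 6) after CORT+DFP against 4.84 ± 0.14 (SD, n = 6) in controls. With sex and age in the fit, the difference was 0.022 in B6, with a 95% confidence interval of -0.099 to 0.14, and 0.0067 in D2, with an interval of -0.096 to 0.11. Changes of the size of the strain difference lay outside both intervals. The interaction was -0.016, with an interval of -0.18 to 0.15. Among the B6 mice of set G1118 alone, with 3 CORT+DFP and 5 control mice, 13 Nr3c2 windows were higher after CORT+DFP and 14 lower. Their differences ran from -0.18 to 0.38, with a median of -0.0015.

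Single Nr3c2 windows spread around 0 in both strains. In B6 the smallest p was at chr8:77143051-77143200. Its B6 control mice had 3.91, 4.57, 4.81, 4.73, and 4.08, and its B6 CORT+DFP mice ranged from 4.47 to 4.87 with a median of 4.65. Of the 5 control mice, 2 were lower than every CORT+DFP mouse and 3 lay among them. The difference was 0.32 (SE 0.16, unadjusted p = 0.045, adjusted p = 0.84). In D2 the smallest p was at 77138251 (0.25, SE 0.13, adjusted p = 0.939), and for the interaction it was at 77141401 (-0.42, SE 0.24, adjusted p = 0.735).

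**Figure D3:**
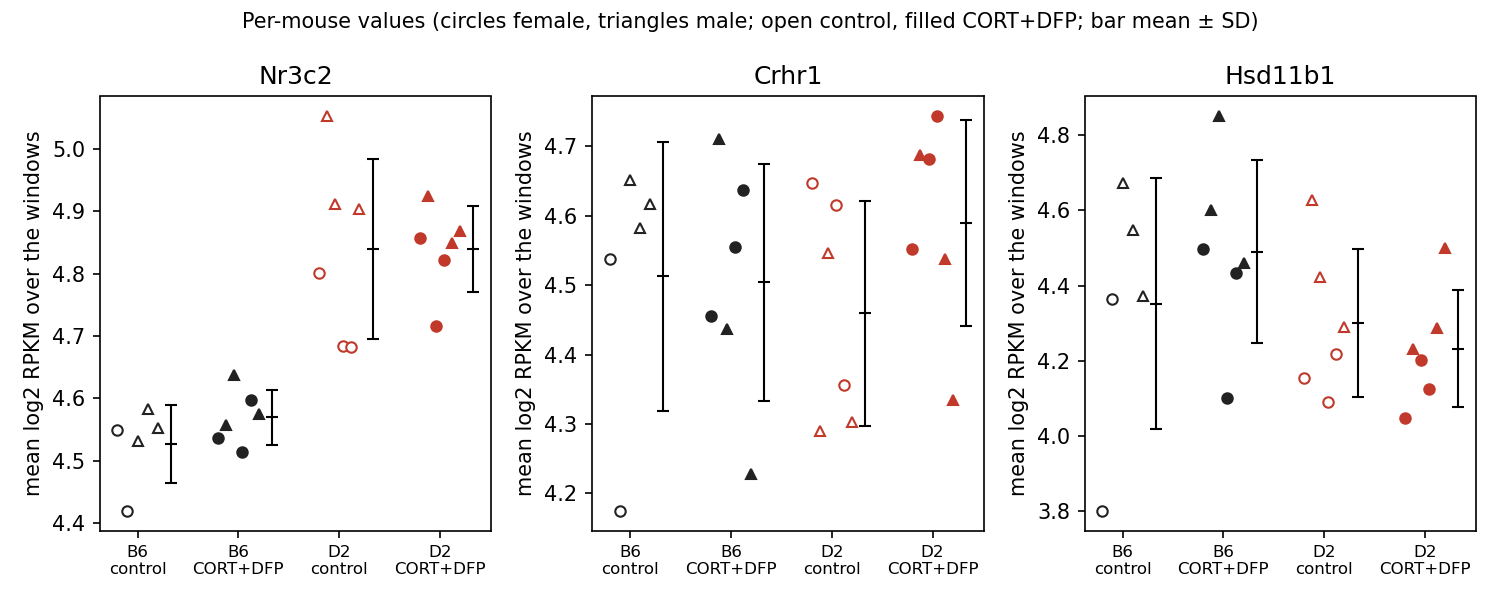
Mean log2 RPKM over the windows of Nr3c2, Crhr1, and Hsd11b1 (y axis) for each mouse in the 4 groups (x axis), with circles for females, triangles for males, open points for control and filled points for CORT+DFP mice, and bars for the mean and SD. In Nr3c2 all D2 mice lie above all B6 mice, a separation that was not compared with that of all genes. In the other genes the 4 groups overlap.

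The mean of Crhr1 was 4.54, 4.17, 4.65, 4.58, and 4.62 in the B6 control mice. It ranged from 4.23 to 4.71 with a median of 4.51 in B6 CORT+DFP mice, from 4.29 to 4.65 with a median of 4.45 in D2 control mice, and from 4.34 to 4.74 with a median of 4.62 in D2 CORT+DFP mice. All 4 groups overlapped. The CORT+DFP difference was -0.065 (SE 0.11) in B6 and 0.14 (SE 0.096) in D2, and the interaction was 0.20 (SE 0.15, adjusted p = 0.632), or 0.11 to 0.32 with each mouse left out in turn. In set G1208 alone, with 4 CORT+DFP and 3 control D2 mice, the D2 difference was 0.19 (SE 0.093, adjusted p = 0.846), and in the D2 mice of set G1014 it was 0.11 (SE 0.14).

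The window chr11:104170201-104170350, whose exon 7 sequence is shown above, had the smallest p of Crhr1 in each comparison. Its B6 control mice had 4.46, 4.46, 4.76, 4.69, and 4.86, and its B6 CORT+DFP mice ranged from 4.21 to 4.62 with a median of 4.51. Its D2 control mice ranged from 4.37 to 4.85 with a median of 4.55, and its D2 CORT+DFP mice from 4.56 to 4.96 with a median of 4.75. The groups overlapped within each strain. The difference was -0.25 (SE 0.15) in B6 and 0.16 (SE 0.12) in D2, and the interaction of 0.41 (SE 0.20) had an unadjusted p of 0.045 and an adjusted p of 0.694.

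The mean of Hsd11b1 was 3.80, 4.37, 4.67, 4.55, and 4.37 in the B6 control mice. It ranged from 4.10 to 4.85 with a median of 4.48 in B6 CORT+DFP mice, from 4.09 to 4.63 with a median of 4.25 in D2 control mice, and from 4.05 to 4.50 with a median of 4.22 in D2 CORT+DFP mice. Again the groups overlapped. The CORT+DFP difference was 0.11 (SE 0.12) in B6, -0.056 (SE 0.098) in D2, and -0.16 (SE 0.16) for the interaction, with adjusted p of 0.718 or more. Without B6 control replicate 1 the difference in B6 was -0.012, and with each mouse left out in turn the interaction ran from -0.23 to -0.041.

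**Figure D4:**
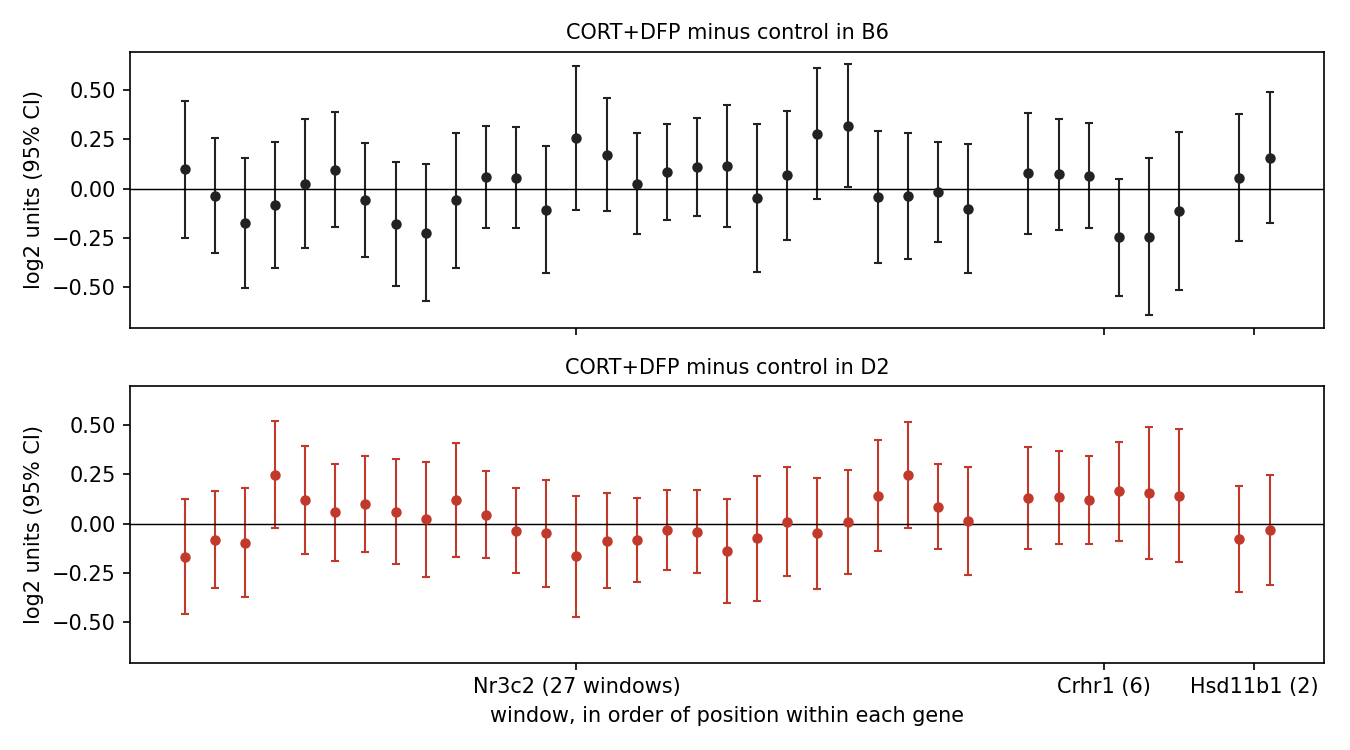
CORT+DFP minus control (log2 units, y axis) with its 95% confidence interval at each of the 35 windows, in B6 mice above and in D2 mice below, in order of position within each gene (x axis). The intervals are wide beside the differences and all but 1, at the Nr3c2 window 77143051 in B6, include 0.

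Hsd11b1 was also the only gene of the 3 called between the sexes, a comparison added after the data were seen. At the window 193240501 the B6 females ranged from 3.69 to 4.40 and the B6 males from 4.30 to 4.70. The D2 females ranged from 3.74 to 4.00 and the D2 males from 4.01 to 4.46. The difference, male minus female, was 0.36 (SE 0.10, adjusted p = 0.021), and 1 of the 35 windows was called for sex, where 5.84% of all windows were called and 0.454% were called higher in males. The mean over both windows differed by 0.29 (SE 0.072, adjusted p = 0.016), where 4.48% of genes were called and 0.531% were called higher in males. These calls were lost when only autosomal windows were tested, with the same differences and adjusted p of 0.42 for the window and 0.356 for the mean. For the mean, the call was also lost under quantile normalization (adjusted p = 0.069) and with voom weights (adjusted p = 0.057). At the window it was lost without B6 control replicate 1 (0.30, adjusted p = 0.093), without D2 control replicate 1 (0.33, adjusted p = 0.052), and without D2 CORT+DFP replicate 6 (0.34, adjusted p = 0.054). The Nr3c2 mean differed by 0.099 (SE 0.037, adjusted p = 0.186) and that of Crhr1 by -0.063 (SE 0.071).

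A list of 42 other genes of the stress axis was examined in the same way, as the mean over the windows of each gene with 5 kb on either side. It held hormones and their receptors, steroid enzymes and transporters, and the chaperones and coregulators of steroid receptors. Of the 42, 24 had a window and 18 had none, among them Crh, Pomc, and Avp, the genes of corticotropin-releasing hormone, the corticotropin precursor, and vasopressin. Of 8 ligand genes only Ucn2, for urocortin 2, had a window. Of the 24 genes, 5 (20.8%) were called for strain, 2 higher and 3 lower in D2, where 26.7% of all genes were called. The median strain difference was 0.015 over the list and -0.0092 over all genes.

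Among receptors, Mc2r, the adrenal receptor for corticotropin, was lower in D2. Its mean over 20 windows was 4.19 ± 0.12 (SD, n = 12) in D2 against 4.61 ± 0.099 (SD, n = 11) in B6, a difference of -0.41 (SE 0.048, adjusted p = 1.74e-07). Avpr1b, the vasopressin receptor of pituitary corticotropes, was lower by the same amount in its only window (-0.41, SE 0.094, adjusted p = 0.0012). Srd5a1, a steroid 5alpha-reductase, was lower by -0.44 (SE 0.067) over 6 windows. Hspa8, a chaperone of the heat shock protein family that takes part in receptor folding, was higher in D2 by 0.76 (SE 0.095) in its only window. Abcb1a, an efflux transporter of the blood-brain barrier that exports steroids, was higher by 0.19 (SE 0.046) over 13 windows. The other 19 genes were not called, among them Hsd11b2, the enzyme that inactivates corticosterone, and Crhr2, the second receptor of the family.

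**Figure D5:**
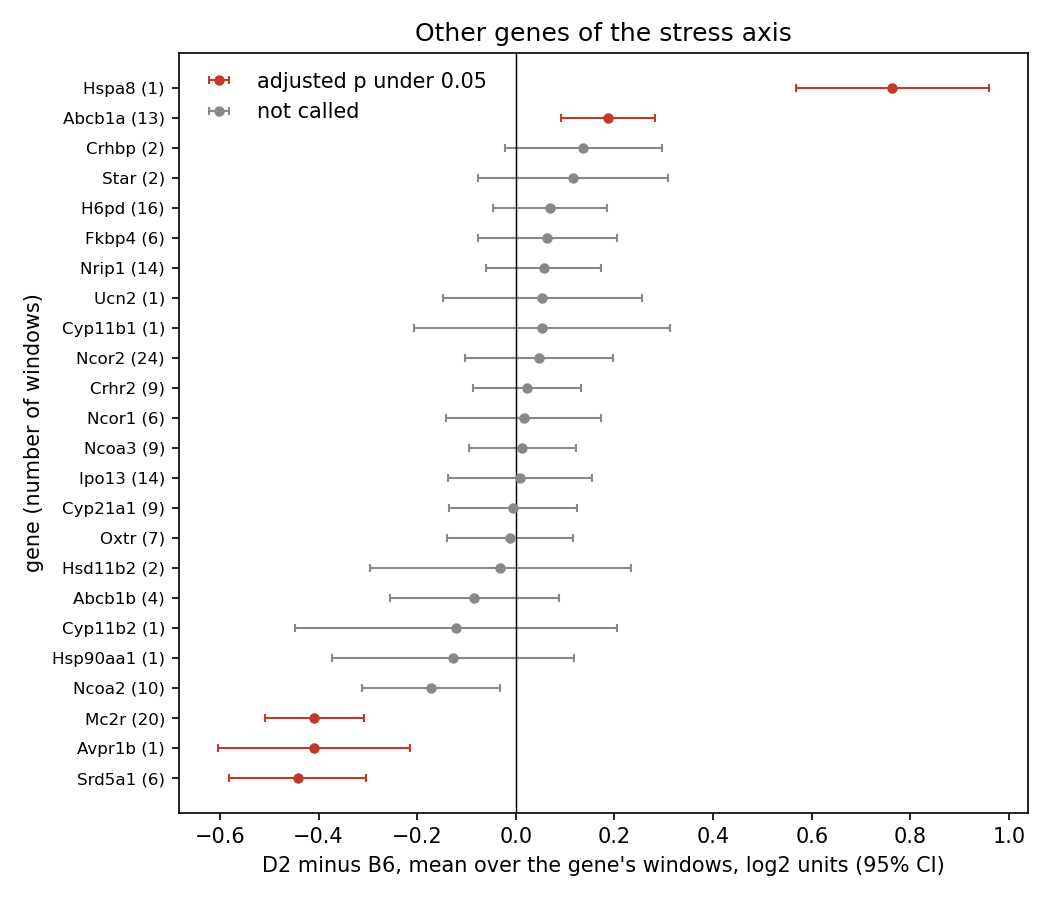
Strain difference (D2 minus B6, log2 units, x axis) with its 95% confidence interval for the 24 genes of the list with a window, each with its number of windows in parentheses (y axis). The 5 genes called over all genes are red, with Hspa8 and Abcb1a above 0 and Mc2r, Avpr1b, and Srd5a1 below 0.

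For CORT+DFP, 0 of the 24 genes were called in either strain or for the interaction by limma, with 4 in B6, 1 in D2, and 4 for the interaction at an unadjusted p under 0.05. Of all genes, 7.27%, 5.66%, and 10% passed this level. The smallest p in B6 was that of Ipo13, an importin of the glucocorticoid receptor (-0.30, unadjusted p = 0.017). In D2 it was that of Ncor1, a corepressor of nuclear receptors (-0.31, unadjusted p = 0.0074). The lowest adjusted p was 0.673 in B6, 0.795 in D2, and 0.465 for the interaction.

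The genes whose values varied most like those of each member over the 23 mice, after the mean of each group was removed, were found among 14802 to 14819 autosomal genes with at least 3 windows. For Nr3c2 they were Cdh13 (r = 0.92), a cadherin gene also on chromosome 8, the pseudogene Dppa5c (r = 0.87), and Bst1 (r = 0.86). For Crhr1 they were Rflna (r = 0.74), Fosl2 (r = 0.73), and Ppp6r3 (r = 0.73), and for Hsd11b1 they were Rev3l (r = 0.82) and the overlapping Gm23921 and Gm30146 (r = 0.81). These are descriptions, taken as the highest of many, in mice that share sets and sexes. The correlation with the log2 of the total reads was -0.23 for Nr3c2, -0.37 for Crhr1, and 0.15 for Hsd11b1.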

How the data were processed

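Methylated DNA of the prefrontal cortex was enriched with MBD2 (MethylMiner) and sequenced in 23 mice. The authors aligned paired reads to GRCm38 (mm10) with STAR 2.5.0a, counted them in 150 bp windows with MEDIPS, kept windows with CpGs and more than 1 CPM in at least 2 libraries, and deposited log2 RPKM with edgeR 3.34.1. Reads of both strains were placed on this genome, which is that of B6, and what this does to the strain differences was not tested. No sample column was left over (0).

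Every value was within 0.1 of a whole number of reads (100%) plus a mean prior of 2, which gave 9776537 to 18428398 reads per mouse in the windows. The median window had 41 reads, for a counting SD of 0.23 in log2, and the SD covers counting error only. The chi-square per window was 1.18 to 4.32 over the 55 pairs of mice in the same group, above the 1 of a repeated library, and all 23 were counted as separate mice.

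The deposited log2 values of all windows were fitted with limma 3.58.1 (R 4.3.3, variance trend) by group, sex, and age, after the regression of the study. A gene was the mean over its windows within 5 kb, by GENCODE M21, and p-values were adjusted over all windows or all genes. The script was tested on simulated data, with 50 changed windows for each size of change. For strain, 22% were called at a difference of 0.5 and 100% at 1. For CORT+DFP in B6, 2% and 56% were called. The simulated spread was the same for all windows and was not taken from these data. Few windows were changed, with 209991 of 210191 unchanged, so these shares need not hold in these data. Tables and figures were made with pandas 2.3.3 and matplotlib 3.10.9.

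The windows named are those called, or the 6 with the largest difference where more were, the window nearest to the start of the gene, that with the highest level, and that with the smallest p in each comparison. List genes named are those called and that with the smallest p in each strain, and others are named to describe what the list holds. The genes, the list, and the comparisons were chosen with earlier results of these data known. The alternatives were no variance moderation or trend, no age, the set in place of age, other scalings, log2(RPKM + 1), and voom weights on the recovered reads. Others were a minimum of 20 mean reads, autosomal windows, no flanks, single sets, and leaving out each mouse. A last one was the strain difference in control mice, taken from the fit to all mice.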

Additional observations from a re-analysis of the deposited data

Results flagged for a closer look

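In the B6 control group, the Crhr1 mean of replicate 2, a female of set G1118, was far from the others. It was 4.17, while the other 4 mice were between 4.54 and 4.65, and the gap was a share of 0.761 of the range of the group, above Dixon's critical value of 0.71. The same mouse was far from the others at the Crhr1 window 104169751, with 4.18 against 4.55 to 4.70 (a share of 0.715). Of 72 groups tested in this way 2 were past the critical value, where chance gives 3.6. Without this mouse the strain difference of the Crhr1 mean was -0.045 and was not called.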

How the results depend on the processing

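No paired analysis was possible because the labels give no replicate number that is shared between groups. Of the 35 windows, 18 were called for strain, and 8 with the set in place of age, 2 among CORT+DFP mice of set G1014 alone, 12 in control mice, 21 with median centring, and 15 to 19 with each mouse left out. Over all windows 72792 were called, 45225 with the set in place of age, and 40126 in G1014 alone, and over all genes 6435, 4033, and 3186. Of all windows, 55925 were called in control mice and 77205 with median centring. Under quantile normalization 62.3% of the gene calls were higher in D2, against 35.4%. Of the list, 5 genes were called, 2 with the set, 0 in G1014 alone, and 5 to 7 with each mouse left out. The Nr3c2 strain difference of 0.29 was 0.32 and not called in G1014 alone (adjusted p = 0.118), and 0.28 to 0.31 with each mouse left out.

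Values near 0 changed sign. The Crhr1 strain mean was -0.0075 with the set and -0.093 in control mice. The D2 treatment difference of Nr3c2 was -0.00236 with median centring and -0.0091 in G1014 alone, and that of Hsd11b1 was 0.047 in G1208 alone. Strain differences at single windows reversed with the set at Crhr1 104169901 (0.0038) and Hsd11b1 193240351 (-0.22), in G1014 alone at the same windows (0.094 and -0.40), with voom at 193240351 (-0.020), with median centring at Crhr1 104169751 (0.012), and in control mice at Crhr1 104170201 (-0.091). The D2 treatment difference at 193240351 was 0.091 in G1208 alone. With each mouse left out, the strain mean ran from -0.045 to 0.034 in Crhr1 and from -0.20 to -0.12 in Hsd11b1, and the strain difference from -0.084 to 0.0056 at 104169751 and from -0.037 to 0.051 at 193240351. The B6 treatment difference then ran from -0.015 to 0.048 in Nr3c2, from -0.18 to 0.024 in Crhr1, and from -0.012 to 0.17 in Hsd11b1, the D2 difference of Nr3c2 from -0.014 to 0.036, and its interaction from -0.042 to 0.024. The cause of these changes was not tested.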
